A study of Mus musculus with 20 samples.

Results

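DNA methylation was compared between early promyelocytes of PML-RARα transgenic mice and those of wild-type (WT) control mice, sorted as CD34+ cells. The comparison held 10 of the 20 libraries of the series, chosen by genotype and fraction in their titles: PML-RARα CD34+ replicates 3, 5, 11, 13 and 19, and WT CD34+ replicates 1, 7, 9, 15 and 17. All mice had the FVB/n background. The other 10 libraries, of CD34- late promyelocytes of both genotypes, gave reference levels and a shared estimate of spread. The labels do not give the promoter that drives the transgene, the age of the mice, or whether each library came from a separate mouse or from pooled animals. The p-values therefore measure the spread between these libraries, which may be partly technical. All 10 libraries held reads of chromosome Y.

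PML-RARα is the fusion protein of acute promyelocytic leukaemia. It joins PML, which organises nuclear bodies, to the retinoic acid receptor RARα, a transcription factor that binds retinoic acid response elements with an RXR partner. The fusion keeps the receptor's DNA-binding part, represses retinoid targets and holds granulocyte precursors at the promyelocyte stage. Promyelocytes fill their primary granules and lose CD34 from the surface as they mature towards neutrophils. Methylation of CpG-rich promoters usually goes with silent genes, whereas methylation at distal, CpG-poor sequence changes as blood cells mature.

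Methylation was read by enhanced reduced representation bisulfite sequencing (ERRBS), which reads restriction fragments rich in CpGs once bisulfite has converted the DNA: methylated cytosines read as C and unmethylated ones as T. Total coverage summed over cytosines lay between 83631324 and 362881291 per library. At least 10 reads in at least 4 of 5 libraries of both groups were found at 1798571 autosomal cytosines. Of these, 92.6% lay in 134955 fixed windows of 1 kb with at least 3 such cytosines, a median of 5 cytosines and a median coverage of 470 per library. A window's level is the percent of its reads that are methylated. Because the cells were measured in bulk, fewer cells with a methylated copy and less methylation per cell cannot be told apart. PML-RARα replicates 11 and 5 and WT replicate 1 had the lowest coverage. Their windows of intermediate methylation also lay farthest from the median of their group (that library left out), at a median distance of 9.86, 8.28 and 8.90 percentage points, against 3.85 to 5.97 in the other 7. In the same 3 libraries 7.55% to 19% of cytosines of intermediate mean level read as below 5% or above 95%, against at most 2.18% in the others.

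A pair of promoter sequences shows the classes of sequence the results turn on, an unmethylated CpG-rich promoter with a receptor element and a CpG-poor promoter with an intermediate level. Both are taken from RefSeq (GRCm38.p6) and run 5′ to 3′ over 300 bases on the gene's strand. Their mm9 positions were found by matching the spacing of their CpGs to the deposited positions. Rarb, which encodes the retinoic acid receptor RARβ, lies on the minus strand at chr14:17407941-17408240, and capitals mark its retinoic acid response element, a direct repeat with a spacer of 5 bases that was first described in the human gene. Abca13, which encodes a lipid transporter of the ABC family, lies on the plus strand at chr11:9091695-9091994, and capitals mark the 5 CpGs that were measured.
Rarb: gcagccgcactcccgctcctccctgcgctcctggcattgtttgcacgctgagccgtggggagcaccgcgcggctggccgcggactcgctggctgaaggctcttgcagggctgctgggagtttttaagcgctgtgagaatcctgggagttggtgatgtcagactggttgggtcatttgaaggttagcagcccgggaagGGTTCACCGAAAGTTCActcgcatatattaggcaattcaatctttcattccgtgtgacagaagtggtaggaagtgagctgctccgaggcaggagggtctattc
Abca13: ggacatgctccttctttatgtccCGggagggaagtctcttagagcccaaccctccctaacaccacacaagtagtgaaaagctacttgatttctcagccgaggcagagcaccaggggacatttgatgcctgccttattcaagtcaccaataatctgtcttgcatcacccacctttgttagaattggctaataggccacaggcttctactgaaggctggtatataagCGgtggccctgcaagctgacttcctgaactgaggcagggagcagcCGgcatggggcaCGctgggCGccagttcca

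Across the genome the genotypes differed little. Mean methylation over the 1264581 cytosines read in all 10 libraries was 31.31, 31.51, 31.11, 31.04 and 31.49% in PML-RARα libraries and 31.65, 31.37, 31.47, 31.35 and 31.70% in WT libraries. The groups overlapped, with means of 31.29% ± 0.214 in PML-RARα, against 31.51% ± 0.158 in WT (SD over n = 5 each). The difference of -0.218 points did not pass a two-sided exact permutation test (p = 0.103; the smallest p these groups allow is 0.00794). Within flowcells, which hold the sequencing lanes, it was -0.0674 on flowcell B with 3 PML-RARα and 1 WT library and -0.371 on flowcell D with 1 PML-RARα and 2 WT libraries. Of the CD34+ libraries, flowcell A held 2 WT and 0 PML-RARα ones, and flowcell C 1 PML-RARα and 0 WT. Genotype is therefore partly confounded with flowcell.

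Each of 6 classes of windows had a lower mean in PML-RARα cells, and none passed its test. Windows of intermediate level, 20 to 80%, averaged 57.38% ± 0.956 in PML-RARα libraries, against 58.40% ± 0.661 in WT libraries (SD over n = 5 each), which is -1.02 points (p = 0.0952 in the two-sided exact permutation test, adjusted over 6 classes 0.143). Windows over 80% differed by -0.433 points (exact permutation p = 0.0635, adjusted 0.143) and those under 20% by -0.099 (exact permutation p = 0.103, adjusted 0.143). CpG-dense windows, with 20 or more cytosines, averaged 8.793% ± 0.169 in PML-RARα, against 8.836% ± 0.0905 in WT (exact permutation p = 0.635, adjusted 0.635). On flowcell B the windows under 20% differed by 0.00605 points and the CpG-dense ones by 0.0383, in the higher direction, and on flowcell D the CpG-dense ones by 0.0597.

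Single windows were compared by a quasi-binomial test of methylated and unmethylated reads, two-sided, with Benjamini-Hochberg adjustment over all windows. Calls needed group means at least 10 points apart and an adjusted p under 0.05. 1 window of 134955 was called, 0.000741%. An unadjusted p below 0.05 was found at 5708 windows, 4.23%, of which 3899 (2.89%) were lower and 1809 (1.34%) higher in PML-RARα cells. The group means lay 10 points or more apart at 3154 windows (2.34%) in the lower and at 1659 (1.23%) in the higher direction. Every PML-RARα library lay below every WT library at 756 windows (0.56%) and above every WT library at 315 (0.233%).

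The called window lay at chr13:44629001-44630000 (mm9) and fell in PML-RARα cells. Its level was 24.0, 37.1, 30.1, 23.0 and 21.8% in the 5 PML-RARα libraries, against 87.1, 72.3, 75.9, 68.5 and 64.4% in the 5 WT libraries. No library of either genotype reached the range of the other. The means were 27.2% ± 6.41 in PML-RARα cells, against 73.6% ± 8.66 in WT cells (SD over n = 5 each), 46.4 points apart (difference -46.4, quasi-binomial test, adjusted p = 0.00498). The median coverage was 600 reads per library and the lowest 257. On flowcell B the PML-RARα libraries stood at 24.0, 37.1 and 30.1% and the WT library at 72.3%. On flowcell D the PML-RARα library stood at 23.0% and the WT libraries at 75.9 and 68.5%.

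The same window was lower in PML-RARα cells in the CD34- fraction, in libraries that took no part in the CD34+ comparison beyond the shared estimate of spread. Its level there was 7.1, 0.13, 0.571, 15.4 and 3.99% in PML-RARα CD34- libraries and 46.1, 30.8, 38.1, 36.7 and 36.7% in WT CD34- libraries. Again the genotypes did not overlap, and the difference was -32.3 points (quasi-binomial test, adjusted over all windows p = 0.0334). It was the 1 window called between the genotypes in CD34- cells, 0.000741% of 134955. The labels do not say whether CD34+ and CD34- libraries came from the same mice. Each CD34+ library is followed in number by a CD34- library of the same genotype and the same number after # in its title. The fractions may therefore not be independent, although the fit treats all libraries as such. No alternative was run for the CD34- call.

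All 5 measured cytosines of the window were lower in PML-RARα cells, and at 4 of them the libraries did not overlap. They lie near its right end. At position 44629859 the level was 4.46, 12.8, 0, 10.9 and 3.96% in PML-RARα and 49.5, 45.1, 52.7, 54.3 and 51.6% in WT libraries, with a median of 114 reads. The strongest difference, -68.2 points, was at position 44629942 on the reverse strand, with means of 9.21% in PML-RARα cells, against 77.4% in WT cells. PML-RARα replicate 11 has no value there or at the last of the 5 positions. The difference was smaller in the neighbouring windows. The window 1 kb to the right averaged 11.1% ± 4.14 in PML-RARα libraries, against 20.5% ± 6.66 in WT libraries, without overlap (quasi-binomial test, unadjusted p = 0.00281). The window 1 kb to the left averaged 30.4% ± 13.1 in PML-RARα, against 33.1% ± 15.5 in WT (unadjusted p = 0.305 in the quasi-binomial test), and the one 2 kb to the right 5.01% ± 2.47 in PML-RARα, against 7.96% ± 7.82 in WT.

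The nearest transcription starts that could be placed were that of Gm33195, 670 kb to the left, and that of Jarid2, 197 kb to the right. Jarid2 encodes a partner of the Polycomb repressive complex that methylates histones. Starts could be placed for 12629 of 31396 autosomal promoter sequences, so a nearer gene may lie between. The call was lost with 10 libraries alone in the fit (adjusted p = 0.0857), with flowcell as a factor (0.167), with cytosines read in all 10 libraries (0.284), and by limma (0.981) and edgeR (1.00). It was also lost without PML-RARα replicate 3 (0.0532), PML-RARα replicate 13 (0.0585) or WT replicate 7 (0.0900). The difference of plain group means lay between -48.9 and -40.8 points under all 21 alternatives. It is not adjusted for flowcell, and it is the same by construction where only the test changes, as with limma or edgeR. Without the 3 libraries of high scatter it was -47.3 points and stayed called (quasi-binomial test, adjusted p = 0.0196).

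**Figure D1:**
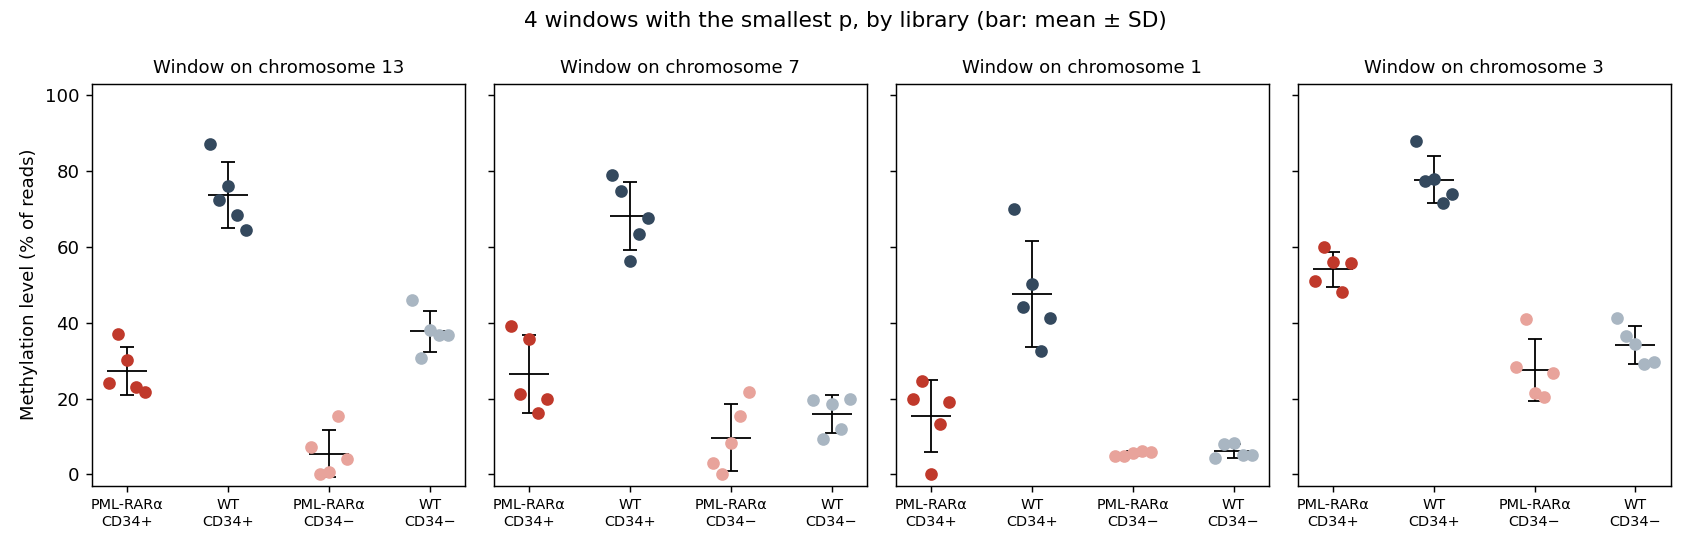
Methylation level (percent of reads) of the 4 windows with the smallest p, one point per library in PML-RARα CD34+, WT CD34+, PML-RARα CD34- and WT CD34- groups, with the mean ± SD as bars. PML-RARα CD34+ libraries lie below all WT CD34+ libraries in each panel, and on chromosome 13 the CD34- groups are separated as well.

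The next windows by p had adjusted values just above the threshold. Genes named for windows here and below are those of nearby starts that could be placed, so a nearer gene may lie between. At chr7:29623001-29624000 the nearest placed starts were those of Ech1 (13.1 kb away, a fatty acid oxidation enzyme) and Actn4 (124 kb away, an actin crosslinker). The level of this window was 39.2, 21.3, 35.7, 16.2 and 19.8% in PML-RARα and 78.9, 74.7, 56.3, 63.3 and 67.5% in WT cells. The groups did not overlap and differed by -41.7 points (quasi-binomial test, adjusted p = 0.0551). In CD34- cells both genotypes were low, at 9.68% ± 8.90 in PML-RARα, against 15.9% ± 4.90 in WT.

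At chr1:74195001-74196000, 24.4 kb from the start of Tns1, which encodes the focal adhesion protein tensin, the level was 20.0, 24.7, 0, 13.2 and 19% in PML-RARα and 70, 44.0, 50.2, 32.5 and 41.3% in WT cells. These groups did not overlap either (-32.2 points, quasi-binomial test, adjusted p = 0.0551). PML-RARα replicate 11 (0%) and WT replicate 1 (70%) have no value at the 2 forward-strand cytosines, so their levels rest on the 2 reverse-strand ones. The strands differed: means were 32.5% in PML-RARα and 62.7% in WT on the forward strand. On the reverse strand they were 3.75% in PML-RARα and 32.3% in WT. The lowest coverage of a library was 20 reads, and without WT replicate 15 the window was called (adjusted p = 0.018). At chr3:122135001-122136000, 12.8 kb from the start of the signalling adaptor gene Bcar3, the level was 51, 59.9, 55.9, 48.0 and 55.7% in PML-RARα and 87.9, 77.3, 77.8, 71.5 and 74.0% in WT cells (-23.6 points, quasi-binomial test, adjusted p = 0.0563). All 7 of its cytosines were lower in PML-RARα cells. This window and the one on chromosome 7 passed the threshold after reads were thinned to equal total coverage (adjusted p = 0.0406 each).

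The further named windows are those with the smallest p in each direction among differences of at least 10 points. None passed the adjustment, so their values are descriptions. Of lower windows, chr5:141260001-141261000, between Brat1 and the G protein gene Gna12, stood at 51.7% ± 7.74 in PML-RARα cells, against 71.0% ± 5.64 in WT cells (SD over n = 5 each), and all 11 of its cytosines were lower. Chr13:97278001-97279000, 34.0 kb from Polk, a translesion DNA polymerase gene, stood at 61.9% ± 12.9 in PML-RARα, against 91.4% ± 5.23 in WT. Chr16:32102001-32103000, 2.63 kb from the start of the centrosome gene Cep19, stood at 30.8% ± 6.52 in PML-RARα, against 52.8% ± 6.68 in WT. Adjusted p over the 7 lower windows beyond the first 4 ran from 0.309 to 0.437 in the quasi-binomial test. At chr11:115152001-115153000, near the ferredoxin reductase gene Fdxr, the genotypes overlapped, since PML-RARα replicate 19 reached 52.9% and WT replicate 15 only 47.7%.

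Of higher windows, the smallest p belonged to chr5:125082001-125083000, 33.7 kb from the cilium gene Tctn2, with 50.9, 42.0, 65.8 and 50.5% in 4 PML-RARα libraries and 6.67, 27.9, 25.4, 29.3 and 31.2% in WT libraries (28.2 points, quasi-binomial test, adjusted p = 0.309). PML-RARα replicate 5 has no value there. Chr17:45979001-45980000 stood at 66.6% ± 4.49 in PML-RARα cells, against 55.1% ± 2.39 in WT cells. Chr4:43460001-43461000, 5.35 kb from the kinase gene Tesk1, stood at 81.6% ± 2.38 in PML-RARα, against 71.0% ± 6.22 in WT. Chr15:99473001-99474000, 8.59 kb from Racgap1, a cytokinesis gene, stood at 52.9% ± 9.97 in PML-RARα, against 32.0% ± 16.2 in WT and overlapped, as WT replicate 1 reached 59.6%. Adjusted p over the 10 higher windows ran from 0.309 to 0.809.

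**Figure D2:**
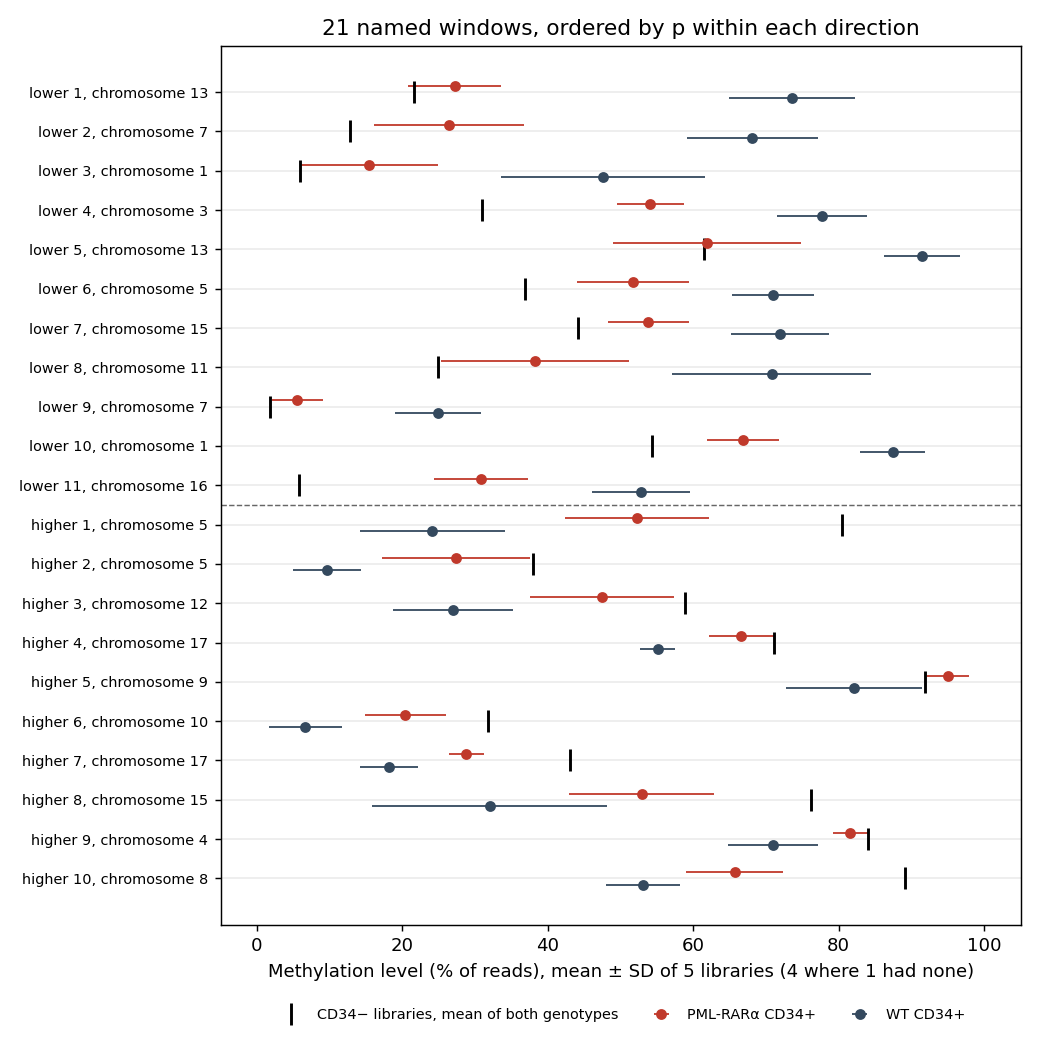
Methylation level (percent of reads, mean ± SD) of the 21 named windows in PML-RARα CD34+ libraries (red) and WT CD34+ libraries (dark blue), with the mean of the CD34- libraries of both genotypes as a black mark. In each of the 11 lower windows the PML-RARα mean lies between the WT mean and the CD34- mark. The mark averages both genotypes. In the called window the PML-RARα CD34+ mean (27.2%) lies below the WT CD34- mean (37.7%). This also holds at chr13:97278001-97279000 (61.9% in PML-RARα CD34+, against 64.3% in WT CD34-).

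Most named windows also differed between the CD34+ and CD34- fractions. To describe this, the fraction difference was fitted over all 20 libraries with genotype as a factor, which weights both genotypes alike. By the same threshold 699 windows (0.518%) were lower and 99 (0.0734%) higher in CD34- than in CD34+ cells. All 11 lower named windows were among the 699, and 8 of the 10 higher named windows were among the 99. The fraction and genotype comparisons use the same CD34+ libraries, so these values are descriptions, and no test is given for them.

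Of the 699 windows that lose methylation between the fractions, 629 (90%) had a lower mean in PML-RARα than in WT CD34+ cells, against 54.3% of all windows. Their median difference was -8.34 points, against -0.0617 over all windows. Over those of them with a value in all 20 libraries, the mean level was 54.5, 60.2, 53.0, 49.1 and 53.2% in PML-RARα CD34+ libraries and 67.4, 64.2, 67.3, 57.0 and 60.1% in WT CD34+ libraries. The genotypes overlapped, because PML-RARα replicate 5 lay above WT replicates 15 and 17. The means were 54.0% ± 4.02 in PML-RARα, against 63.2% ± 4.55 in WT (SD over n = 5 each). In CD34- libraries the same windows averaged 37.3% ± 1.23 in PML-RARα mice, against 39.5% ± 3.27 in WT mice. Averaged over all 699 windows, with or without a value in each library, PML-RARα CD34+ cells stood 36.6% of the way from the WT CD34+ level to the mean CD34- level of both genotypes.

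The 99 windows that gain methylation showed the mirror image. In 89 of them (89.9%) the mean was higher in PML-RARα than in WT CD34+ cells, against 45.6% of all windows, with a median difference of 8.33 points. Their level was 50.5, 45.9, 51, 53.2 and 50.8% in PML-RARα CD34+ and 40.7, 40.4, 37.8, 46.7 and 43.2% in WT CD34+ libraries. The sets overlapped only through PML-RARα replicate 5 and WT replicate 15. The means were 50.3% ± 2.68 in PML-RARα, against 41.8% ± 3.35 in WT, and in CD34- libraries 66.0% ± 1.78 in PML-RARα mice, against 64.5% ± 1.65 in WT mice. Averaged over all 99 windows, PML-RARα CD34+ cells stood 36.4% of the way to the CD34- level. At unadjusted p below 0.05 in the genotype test stood 306 of the 699 windows as lower (43.8%) and 0 as higher, and 43 of the 99 as higher (43.4%) and 0 as lower. Over all windows these shares were 2.89% lower and 1.34% higher. The 699 and 99 windows were chosen with the same CD34+ libraries that enter the genotype test. Their shares are therefore descriptions and no measure of enrichment.

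Windows of 20 to 80% that were not called between the fractions, 23357 in number, did not show the shift to this extent. Of these, 54.6% were lower in PML-RARα CD34+ cells, with a median difference of -0.561 points and means of 57.5% ± 0.923 in PML-RARα, against 58.4% ± 0.654 in WT. Within flowcell B the 699 windows averaged 56.3% in 3 PML-RARα libraries and 64.4% in 1 WT library. Within flowcell D they averaged 49.4% in 1 PML-RARα and 62.6% ± 7.19 in 2 WT libraries. Without the 3 libraries of high scatter, 596 windows fell between the fractions, and they averaged 50.5% ± 3.17 in 3 PML-RARα libraries, against 60.7% ± 4.71 in 4 WT libraries of CD34+ cells. When the windows were chosen on WT libraries alone, 446 of 458 (97.4%) were lower in PML-RARα CD34+ cells. That choice itself favours a high WT CD34+ level. Chosen on PML-RARα libraries alone, which favours the reverse, only 8 windows were called, and all 8 were lower in PML-RARα CD34+ cells. The share of mature cells in each sort was not measured, and its part in the shift was not tested.

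**Figure D3:**
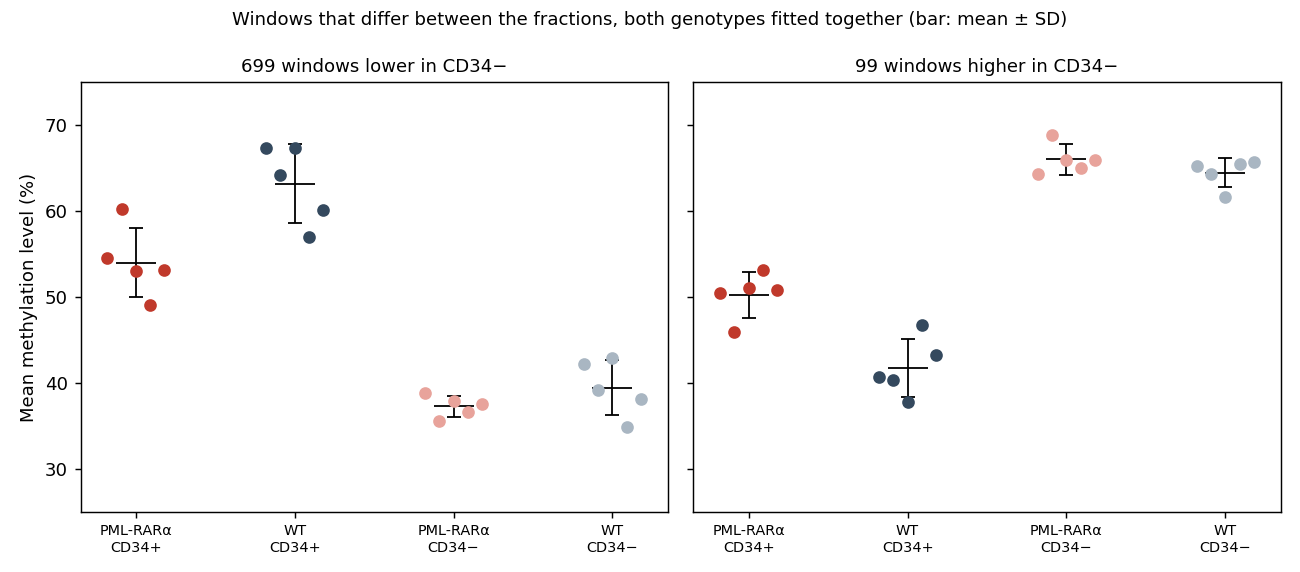
Mean methylation level (percent) over the 699 windows lower (left) and the 99 windows higher (right) in CD34- than in CD34+ cells, one point per library, with the mean ± SD as bars. In both panels PML-RARα CD34+ libraries lie mostly between the WT CD34+ libraries and the CD34- libraries of both genotypes.

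**Figure D4:**
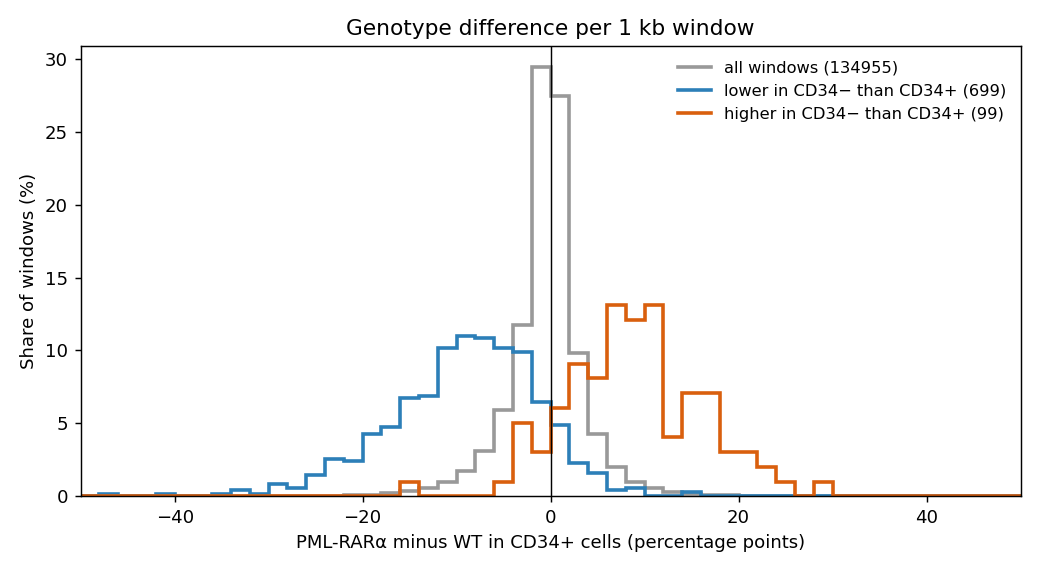
Share of windows (percent) by the difference of PML-RARα minus WT CD34+ means (percentage points, bins of 2) for all 134955 windows and for the windows lower or higher in CD34- cells. All windows centre near 0 (median -0.0617), the 699 lower windows near -8.34 and the 99 higher windows near 8.33.

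Single cytosines gave no call. Of 1798571 tested with the 10 libraries, 0 were called by the quasi-binomial test (0%), with 93334 at an unadjusted p below 0.05, 5.19%. With the spread estimated from all 20 libraries 1 cytosine passed, position 44629859 of the called window on chromosome 13.

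Promoters, taken as 250 bases before to 50 after a transcription start, were tested at 11524 placed sequences of 10098 genes. None was called by the quasi-binomial test (0%), with 705 at an unadjusted p below 0.05, 6.12%. By limma and edgeR 351 and 383 had an unadjusted p below 0.05 and none was called either. Lower in PML-RARα cells were 379 of them, 3.29% of all tested, and higher were 326, 2.83% of all tested. Most of the tested promoters were unmethylated: of 1 promoter per gene, 9130 of 10098 (90.4%) averaged below 5%, and the median difference was -0.00431 points. Placement needed at least 4 matched CpGs, which favours CpG-rich promoters, so this share does not describe promoters in general. No member of any list was called, and at an unadjusted p below 0.05 no list had more than 2 members in either direction.

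The retinoid pathway is where RARα and its fusion act directly. Promoters of 8 of its 19 listed genes were tested, and 7 of the 8 stood below 5%, among them those of the receptors Rara, Rarb, Rarg, Rxra and Rxrb, of Pml and of the corepressor Ncor1. Rara stood at 0.0899% ± 0.115 in PML-RARα cells, against 0.518% ± 0.622 in WT cells, and Pml at 0.0875% ± 0.135 in PML-RARα, against 1.16% ± 1.98 in WT (SD over n = 5 each). These small differences had unadjusted p of 0.0402 and 0.00691 in the quasi-binomial test (adjusted p = 0.811 each), and WT replicate 9 alone carried 4.68% at Pml. Stra6, the receptor that takes up retinol, was the exception at 27.7% ± 9.36 in PML-RARα, against 29.4% ± 4.58 in WT.

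The Rarb promoter printed above was unmethylated in every library. Its level was 0, 0.688, 0, 0.0368 and 0.0452% in PML-RARα and 0.0479, 0.205, 0, 0 and 0.0404% in WT libraries, at a median of 1864 reads. The single CpG inside the element, 46 bases before the start, read 0% in all 10 libraries at 151 to 428 reads each. A count of 0 allows a level of up to 0.701% to 1.78% in the PML-RARα libraries and up to 0.815% to 1.99% in the WT libraries (3 counts of the reads, counting error only), so that methylation below this was not detectable. The element, GGTTCANNNNNAGTTCA on either strand, was found in 2 of 32851 promoter sequences (0.00609%), those of Rarb and Gm52524.

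Of 12 listed transcription factors of granulocyte development 8 were tested. All 8 stood below 5%, as did 90.4% of all genes tested, and 7 were lower and 1 higher in PML-RARα cells by at most 0.282 points. Cebpa, the master factor of granulocyte commitment, stood at 0.0828% ± 0.185 in PML-RARα cells, against 0.0866% ± 0.194 in WT cells. Gfi1, a repressor needed for neutrophil maturation, stood at 0.124% ± 0.12 in PML-RARα, against 0.214% ± 0.139 in WT, and Etv6 had the widest gap with 0.282% ± 0.505 in PML-RARα cells, against 0 in each WT library. No promoter of the primary granule list (Mpo, Elane, Prtn3, Ctsg and others) was placed, and none of the late granule list was tested, so the labelled stage could not be checked against these markers.

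Stem and progenitor genes, DNA methylation enzymes and cell cycle genes gave the same picture. Kit, the progenitor receptor, stood at 0.0762% ± 0.140 in PML-RARα, against 0.093% ± 0.107 in WT, and Dnmt3a, a de novo DNA methyltransferase, at 0.0846% ± 0.0577 in PML-RARα, against 0.137% ± 0.0803 in WT. Of 7 progenitor genes 6 stood below 5%, and Prom1 was at 28.3% ± 7.52 in PML-RARα cells, against 26.6% ± 2.46 in WT cells. All 10 tested methylation and chromatin genes stood below 5%, with the largest gaps at Tet3 (0.605% ± 0.440 in PML-RARα, against 1.42% ± 1.09 in WT) and Tet1 (1.37% ± 0.574 in PML-RARα, against 0.675% ± 0.389 in WT). All 12 tested cell cycle genes stood below 5% as well. The cell cycle inhibitor Cdkn2b, often methylated in human leukaemia, stood at 0.787% ± 0.590 in PML-RARα cells, against 0.634% ± 0.338 in WT cells.

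Among 10 tested genes whose promoters are often methylated in human leukaemia all 10 stood below 5%, the highest being Hic1 with 2.19% ± 0.697 in PML-RARα, against 1.93% ± 0.346 in WT. Of these 10, 7 were higher and 3 lower in PML-RARα cells, between -0.3 points at Sfrp2 and 0.656 points at Timp3. Of 10 Polycomb-bound developmental genes 9 stood below 5%, with Foxd3 at 4.74% ± 3.75 in PML-RARα, against 6.18% ± 1.89 in WT. Here 8 were higher and 2 lower in PML-RARα cells, between -1.44 points at Foxd3 and 1.27 points at Otx2. Over all genes tested, 4753 of 10098 were higher. Of 3 tested genes of other blood cells, the B cell factor Pax5 stood at 3.44% ± 2.48 in PML-RARα, against 4.38% ± 2.75 in WT and the platelet integrin Itga2b at 0.919% ± 0.842 in PML-RARα, against 1.36% ± 0.884 in WT. The erythropoietin receptor gene Epor was methylated, at 62.7% ± 10.8 in PML-RARα, against 52.9% ± 5.80 in WT (unadjusted p = 0.111 in the quasi-binomial test).

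Above 20% stood all 9 tested germ cell genes and 4 of the 6 tested of the 17 listed imprinted genes. The germ cell genes had a median of 91.9%, such as Ddx4, an RNA helicase of germ cells, at 92.0% ± 0.409 in PML-RARα cells, against 91.9% ± 1.53 in WT cells. The piRNA factor Tdrd1 varied most, with 51, 87.1, 100, 58.8 and 83.1% in PML-RARα and 93.5, 42.8, 73.4, 54.3 and 53.8% in WT libraries. Imprinted genes carry methylation on the copy of 1 parent, though 2 of the 6 tested promoters stood below 5%. These were Grb10 (0.73% in PML-RARα, against 0.593% in WT) and Inpp5f (0% in PML-RARα, against 0.122% in WT). Of the 6, 5 were lower in PML-RARα cells with a median difference of -5.50 points. Inpp5f is 1 of the 5, by only -0.122 points. Over all genes 5253 of 10098 were lower with a median difference of -0.00431, but the levels are not alike: the median level was 35.6% for these 6 and 0.121% for all genes. Nnat, expressed from the paternal copy, stood at 37.8, 42.9, 24.8, 24.9 and 14.1% in PML-RARα and 54.8, 41.3, 45.0, 51.1 and 53.3% in WT libraries. The groups overlapped only through PML-RARα replicate 5 and WT replicate 7, and the difference of -20.2 points did not pass (quasi-binomial test, unadjusted p = 0.00988, adjusted p = 0.811). Zrsr1 stood at 32.7% ± 8.92 in PML-RARα, against 43.7% ± 7.40 in WT, Meg3 at 37.2% ± 10.0 in PML-RARα, against 44.3% ± 5.87 in WT, and Plagl1 at 30.9% ± 8.31 in PML-RARα, against 34.9% ± 9.87 in WT.

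**Figure D5:**
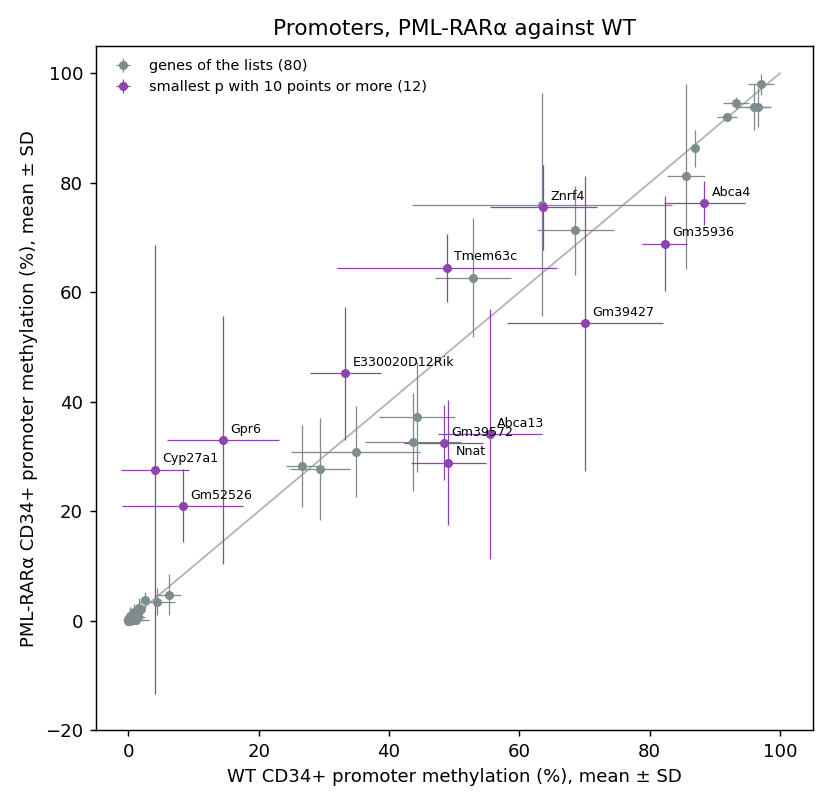
Promoter methylation (percent, mean ± SD of the libraries) in PML-RARα CD34+ cells on the vertical axis and WT CD34+ cells on the horizontal axis, for 80 genes of the lists (grey) and the 12 promoters with the smallest p and a difference of at least 10 points (purple), with the line of equal levels. Most list genes sit near 0 on both axes, while Abca13 and Nnat lie below the line.

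The promoters with the smallest p among differences of at least 10 points were chosen for that difference, and none passed the adjustment (adjusted p from 0.763 to 0.882 in the quasi-binomial test). Every PML-RARα library lay below every WT library at 44 of the 11524 promoters (0.382%) and above at 17 (0.148%). Abca13 had the lowest difference, with 30.5, 70.7, 7.52, 29.6 and 32.3% in PML-RARα and 64.6, 62.0, 53.7, 44.7 and 52.5% in WT libraries. PML-RARα replicate 5 lay above all WT libraries and the other 4 below all of them, and the difference was -21.4 points, with -30.5 without PML-RARα replicate 5 and -14.8 without PML-RARα replicate 11. In CD34- libraries the promoter was nearly unmethylated, at 5.84% ± 1.61 in PML-RARα mice, against 7.49% ± 4.38 in WT mice. In the printed sequence the CpGs around the start, capitalised towards the 3′ end, had differences between -30.7 and -16 points, and the CpG at base 24 had -13.7 on the forward and -3.81 on the reverse strand.

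Gm39572 stood at 32.5% ± 6.86 in PML-RARα cells, against 48.4% ± 6.09 in WT cells, without overlap (quasi-binomial test, unadjusted p = 0.000383). Abca4, a retinoid transporter of photoreceptors, stood at 76.3% ± 4.09 in PML-RARα, against 88.4% ± 6.19 in WT, also without overlap, and its difference of -12.1 points was -7.71 without the 3 libraries of high scatter. Gm39427, at 54.3% ± 27.0 in PML-RARα, against 70.1% ± 12.0 in WT, differed by -15.8 points, by -27.2 without PML-RARα replicate 5, which read 100%, and by -9.88 without PML-RARα replicate 13. It was low in CD34- libraries with 8.50% ± 8.70 in PML-RARα, against 14.8% ± 8.84 in WT. Among higher promoters Tmem63c stood at 64.5% ± 6.22 in PML-RARα cells, against 48.9% ± 16.9 in WT cells, 15.6 points apart and 8.05 points apart without WT replicate 1. Its cytosines did not move together: 4 of the 6 had lower means in PML-RARα cells, and the strands of the CpG at base 97 differed by 20.4 points on the forward strand (median of 158 reads) and by -17.7 on the reverse strand (40.5 reads). The difference at Cyp27a1, a mitochondrial sterol hydroxylase gene, rested on PML-RARα replicate 11, which read 100% while the other 4 read 0 to 18.1% and WT libraries 0 to 12.8%. It was 23.6 points, and 5.49 points without that library.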

How the data were processed

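Genomic DNA of sorted cells was sequenced as ERRBS libraries. CASAVA 1.8.2, Bismark and the mm9 genome are named in the submitters' processing notes. Per the file headers the authors deposited, for each CpG cytosine, a read count (coverage) and the percent of reads with C and with T. The authors listed no cytosine under 10 reads and pooled no replicates. Methylated reads were taken as coverage times percent C, whole at 100% of cytosines. The files hold no molecular identifiers, so 1 molecule can count repeatedly. No column of other samples was used.

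Windows, promoters and cytosines were fitted with a quasi-binomial logistic model, windows and promoters over all 20 libraries in 4 groups of genotype and fraction, cytosines over the 10 CD34+ libraries. The overdispersion (median 9.20 for windows, 16 residual degrees of freedom) was moderated over windows (prior degrees of freedom 3.47) with a floor of 1. The model was checked on simulated data. Values per library were compared by exact permutation. Limma 3.58.1 (log2 ratios of reads plus a pseudocount of 1) and edgeR 4.0.16 were run in R 4.3.3, all else in Python 3.11.15. No pair of CD34+ libraries of a genotype looked like a duplicate (chi-square per window 6.06 to 19.9 over 20 pairs).

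RefSeq promoter sequences were placed among mm9 positions by CpG spacing. Those with at least 7 matched CpGs, 3 more than any other placement, were placed first. Those with at least 4 were then placed between placed neighbours at the same distance within 2000 bp. This gave 12629 of 31396 (40.2%). This replaced a planned rule of 5 CpGs with a unique placement, after placements were seen. Of those first placed, 99.89% kept their distance to neighbours.

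Named were every called window, the 10 smallest p in each direction with 10 points or more, and a part of the members of each list. Rara, Rarb, Pml, Cebpa, Gfi1, Kit, Cdkn2b and Dnmt3a were named by plan. The plan also held the members with the largest differences in each list (up to 4), but the text above leaves some of them out. Among those left out were the promoters of Tal1 (-0.849 points, PML-RARα minus WT) and Cdkn2a (-0.374). The 12 promoters of smallest p, the fraction description and its settings were added after values were seen. The comparison, gene lists and members were chosen with earlier results of these data known. Alternatives varied coverage, depth, libraries, batch factors and tests.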

Additional observations from a re-analysis of the deposited data

Results flagged for a closer look

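In 126 groups of 4 or 5 library values the highest or lowest value was compared with the others of its group, and 13 values stood apart. For independent, normally distributed values chance alone gives about 1 in 20 groups, or 6.3. Many of these groups are windows and promoters chosen here for large differences, which single values help to produce. The count of 13 therefore cannot be judged against 6.3.

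WT replicate 1 gave 6 of the 13. Its scatter was 8.90 points, against 3.85 to 4.81 in the other WT libraries, and 17.9% of its cytosines of intermediate level read below 5% or above 95%, against 0.0164% to 0.611%. At chr5:125082001-125083000 it stood at 6.67%, against 25.4% to 31.2%. At the promoters of Tmem63c, Znrf4 and E330020D12Rik it stood at 18.8%, 49.6% and 23.6%, against 54.1% to 57.9%, 64.1% to 69.8% and 35.2% to 37.0%. At each of these 4 features the PML-RARα mean was the higher, and this library widened the gap. The features were listed for a PML-RARα mean at least 10 points higher, which a low WT value helps to produce.

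PML-RARα replicate 11 gave 4. It stood at 100% at chr9:61481001-61482000 (others 92.8% to 94.6%) and at the Cyp27a1 promoter (0 to 18.1%), at 72.0% at the Gpr6 promoter (17.3% to 31.9%) and at 51.6% at that of Sycp1, a meiotic chromosome protein gene (84.0% to 91.9%). PML-RARα replicate 5 stood at 88.5% at the promoter of the germ cell gene Dazl, against 95.5% to 95.7%. WT replicate 9 stood at 59.1% at Gm39572 (44.7% to 47.6%) and at 88.2% at Hormad1 (86.3% to 86.8%). PML-RARα replicates 5 and 11 and WT replicate 1 had the lowest total coverage of the 10, and its part in these values was not tested.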

How the results depend on the processing

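The count of 1 called window was 0 with the 10 CD34+ libraries alone, with flowcell as a factor, with cytosines read in all 10 libraries, by limma and by edgeR, and 4 after thinning to equal total coverage, all lower in PML-RARα cells. Leaving out each library gave 0 to 2, with 0 without PML-RARα replicate 3 or 13 or WT replicate 7 and 2 without WT replicate 15; the cause was not tested. Limma and edgeR gave 6017 and 3584 windows at an unadjusted p below 0.05. No promoter was called under any of 20 alternatives. 1 cytosine was called with all 20 libraries sharing the spread, and 0 under the other 12 alternatives. The class differences that changed sign were those of windows under 20% on flowcell B (0.00605) and of windows with 20 or more cytosines on flowcells B (0.0383) and D (0.0597) and without PML-RARα replicate 3 (range -0.102 to 0.00645 without single libraries). The level difference at windows lower in CD34- cells was -16.6 when these were chosen on PML-RARα libraries alone, and -11 to -7.35 without single libraries; at windows higher in CD34- cells it was 7.10 to 10.2. The 21 named windows were chosen for a difference of at least 10 points, and settings that change only the test leave it unchanged. Little change of direction could therefore occur, and all 417 values of these windows kept their direction. Of 273 values of 14 promoters 3 did not: Cdkn2b was -0.0407 without PML-RARα replicate 11 (-0.0407 to 0.302 without single libraries), and Rarb -0.0340 without the 3 libraries of high scatter and -0.0382 without PML-RARα replicate 5 (-0.0382 to 0.134). All 10 libraries held chromosome Y reads, so no sex factor could be formed. No paired analysis was possible because the 2 genotypes share no replicate numbers; CD34+ and CD34- libraries have consecutive numbers, and a fit of the fractions with these as pairs was not run; the number after # in the titles, used as a factor, left the count at 1.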

Other observations

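Over 22008 windows of intermediate level, libraries were no farther from those of the other genotype than from those of their own: both mean distances were 10.6 points, and the difference was -0.0296 (one-sided exact permutation over the 2 groups, p = 0.5). The nearest library had the same genotype for 5 of the 10. WT replicate 7, which had the lowest scatter (3.85 points), was the nearest to PML-RARα replicates 3, 5 and 13 and to WT replicates 1, 9, 15 and 17. The count therefore rests largely on this library. The median SD per window was 3.85 points in PML-RARα cells, against 3.11 in WT cells. The scatter per library averaged 6.74 ± 2.26 points in PML-RARα and 5.31 ± 2.04 in WT libraries (SD, n = 5 each), which did not pass a two-sided exact permutation test (p = 0.262). This difference of 1.43 points was 0.617 without WT replicate 7, 0.731 without PML-RARα replicate 11 and 2.53 without PML-RARα replicate 3, and 2 of the 3 libraries of lowest coverage are PML-RARα ones. Reads of mitochondrial cytosines, which are taken as unmethylated, carried C in 0.0638% to 0.192% of cases.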
